A study of Mus musculus with 2 samples.

Results

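Tcf7, Lef1, Satb1, Bach2, Id3 and Foxo1 encode 6 transcription regulators linked to naive, memory and stem-like states of T cells. They were chosen by name, with earlier results of these data known, and make up 6 of the 11971 genes in the table. The cells were T cells of the colon, sorted for CD4 and the beta chain of the T cell receptor, from 12 mice with transfer colitis. All recipients were Rag-/- and so had no T or B cells of their own. They had received naive CD4+ CD45RBhigh CD25- T cells that were either WT (6 mice) or BCL-6 deficient (KO, 6 mice). The part of Bcl6 removed, any Cre driver, the number of donors and the age of the mice are not given in the sources used here, and p-values below therefore measure the spread between these mice.

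Each mouse carried its own hashtag antibody, and all 12 mice were read in 1 pooled library of 5′ chemistry that held 57634998 unique molecular identifiers (UMIs, 1 per captured transcript molecule) in 18860 cells. Mice gave 1409 to 1736 cells and 4252124 to 5523025 UMIs. The median depth per cell was 2381 to 2997 UMIs in KO mice and 2864 to 3103 in WT mice, and the mitochondrial share was 0.81% to 0.83% against 0.85% to 0.935%. Bcl6 itself was read at 65.8 to 91.3 counts per 1000000 UMIs (CPM) in KO and at 48.4 to 69.6 in WT mice, so its count goes against the label, and without knowing which part was removed it checks nothing. KO and WT below therefore mean mice labelled KO and WT. The 5 T cell markers summed to 3490 to 4169 CPM in KO and 3203 to 3705 in WT mice. The sums of the markers of other cells were small: myeloid 2.90 to 6.31 against 4.89 to 8.41 CPM (3 of 5 markers in the table), epithelial 4.79 to 10.9 against 8.63 to 22.7 (3 of 5), NK and innate 2.82 to 9.81 against 4.42 to 14.6 (4 of 5), and B and plasma cells, with Igkc alone in the table, 0 to 5.55 against 10.6 to 24.6. The sum of Cd8a and Cd8b1 was 4.06 to 10.0 against 11.3 to 56.2 CPM. The part of these other cells in the results was not tested.

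TCF-1, the product of Tcf7, and LEF-1 are related high-mobility-group proteins that bind the same DNA motif and take up beta-catenin or Groucho corepressors of the TLE family. FOXO1 keeps quiescent T cells in circulation through Klf2 and Il7r and leaves the nucleus when phosphorylated by AKT. BACH2 is a repressor that competes with AP-1 factors at effector genes, ID3 holds E proteins off DNA, and SATB1 folds chromatin in developing and peripheral T cells. TCF-1 and BCL-6 act together in follicular helper and stem-like T cells, where BCL-6 opposes BLIMP-1, the product of Prdm1.

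On GRCm38, Tcf7 lies on chromosome 11 (52252371 to 52283014, minus strand) and Lef1 on chromosome 3 (131110471 to 131224356, plus strand). Foxo1 lies on chromosome 3 (52268336 to 52353221, plus strand) and Satb1 on chromosome 17 (51736187 to 51833290, minus strand). Bach2 (32238804 to 32586108) and Id3 (136143497 to 136145755) lie on the plus strand of chromosome 4. Another gene of the table overlaps 4 of them: Gm26551 lies within Tcf7 on the same strand (47 UMIs against 6493 of Tcf7), and Gm43352 (512 against 4559 of Lef1), Bach2os (24 against 934 of Bach2) and Gm20402 (68 against 9125 of Foxo1) lie on the opposite strand. Whether counting used strand was not given in the sources used here, and reads in these overlaps are uncertain. Satb1 was counted with 24885 UMIs and Id3 with 466.

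RefSeq promoter windows (GRCm38.p6, 250 bases before to 50 after a start site, 14 windows for the 6 genes) were searched on both strands because BCL-6, TCF-1 and FOXO1 bind known motifs. The BCL-6 motif TTCCTNGAA was in 0 of the 14 windows and in 1.59% of the 32851 windows of all genes. The looser TTCNNNGAA, which contains the first motif and also serves STAT factors, was in 1 window, of Bach2, and in 8.30% of all windows. The TCF/LEF letters CTTTGA were in 2 windows (Lef1 and Bach2; 16.0% of all) and CTTTGT in 3 (1 of Lef1, and the same match in 2 overlapping windows of Satb1; 18.7%). The FOXO letters GTAAACA were in 1 window, of Tcf7, from the start site on (3.65%), and the AP-1 and BACH letters TGANTCA in 0 (7.81%). Shown here are the Bach2 match, the only one for the looser BCL-6 and STAT motif, and both CTTTGA matches of Lef1, with the match in capitals on the gene's own strand. Bach2 had 1 window, whose start site lies 178631 bases inside the gene span at an annotated alternative start. The start of the Bach2 gene span was therefore not searched for any motif. The Lef1 start site lies 45823 bases inside its gene and 42438 bases from the nearest start of a GENCODE transcript of Lef1. None of the 3 stretches overlaps a GENCODE exon of its gene. A match describes letters only.
Bach2, chr4:32417265-32417333, plus strand: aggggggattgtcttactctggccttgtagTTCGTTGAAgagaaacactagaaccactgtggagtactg
Lef1, chr3:131156084-131156149, plus strand: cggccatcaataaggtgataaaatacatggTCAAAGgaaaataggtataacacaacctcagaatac
Lef1, chr3:131156144-131156209, plus strand: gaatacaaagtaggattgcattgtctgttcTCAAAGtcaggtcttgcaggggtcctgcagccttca

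Over all cells of a mouse, Satb1 and Lef1 were lower and Bach2 was higher in KO than in WT mice, while Tcf7, Id3 and Foxo1 did not pass the test. UMIs were summed per mouse and compared with edgeR's quasi-likelihood test with Benjamini-Hochberg adjustment, and genes with an adjusted p under 0.05 were called. All 6 genes passed the filter on low counts, and 1 was called higher and 2 lower, while 14.2% of the 9861 genes tested were called (7.04% higher, 7.21% lower). The median log2 fold change of the 6 was -0.08 and that of all genes tested -0.00. In sums over a mouse, fewer cells of a type and less RNA per cell cannot be told apart.

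Satb1, the chromatin organizer, was at 328, 320, 415, 335, 377 and 379.5 CPM in KO mice 1 to 6, whereas WT mice 1 to 6 stood at 476, 506, 484, 544, 414 and 570 CPM. Only WT mouse 5 lay at the level of the highest KO mouse, mouse 3. The fitted log2 fold change was -0.52 ± 0.08 (SE, edgeR adjusted p = 3.9e-04), with means of 359 ± 37.3 and 499 ± 54.8 CPM (SD, n = 6 each).

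Lef1, the second TCF family member, was at 40.2, 39.3, 70.1, 68.0, 69.6 and 86.9 CPM in KO mice 1 to 6, whereas WT mice 1 to 6 stood at 84.7, 92.7, 85.4, 91.8, 98.7 and 111 CPM. KO mice 1 and 2 were far below all others, and KO mouse 6 reached the range of WT mice. The log2 fold change was -0.63 ± 0.16 (edgeR adjusted p = 0.0122), and without KO mice 1 and 2 it was -0.39 (adjusted p = 0.0124). In these 2 mice recirculating cells, the cluster with the highest Lef1, took 8.86% and 6.83% of cells, against 18.8% to 40.0% in the other KO mice and 21.7% to 30.9% in WT mice. They were also the lowest 2 KO mice for Lef1 within every cluster except regulatory cells. Within recirculating cells they stood at 92.0 and 90.4 CPM, against 99.1 to 126.1 in the other KO mice. Within unnamed 1, a numbered cluster, they stood at 26.6 and 23.2 CPM, against 41.4 to 52.6. The part of the cluster mix in their low Lef1 was not tested.

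Bach2, the repressor, was at 25.7, 31.3, 23.0, 14.2, 19.2 and 14.5 CPM in KO mice 1 to 6, whereas WT mice 1 to 6 stood at 14.5, 11.7, 9.43, 11.3, 10.1 and 12.9 CPM. KO mice 1 to 3 stood highest, and KO mice 4 and 6 were at the level of WT mouse 1. The log2 fold change was 0.82 ± 0.19 (edgeR adjusted p = 0.00755), from 47 to 133 UMIs a mouse. It was 0.56 without KO mice 1 and 2 (edgeR adjusted p = 0.0476). With every mouse set to the mix of clusters of all cells pooled, it was 0.51 (edgeR adjusted p = 0.0146).

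The other 3 overlapped widely between genotypes. Tcf7 was at 105.6 to 124.2 CPM in KO (median 119.1) and 89.7 to 118.6 in WT mice (median 112.6), with a log2 fold change of 0.05 ± 0.07 (edgeR adjusted p = 0.696). Foxo1, the forkhead factor, was at 200.02 and 201.3 CPM in KO mice 1 and 2, at 136.0 to 162.8 in the other KO mice and at 129.6 to 171.4 in WT mice, with 0.14 ± 0.09 (adjusted p = 0.354) over all mice and -0.0012 without KO mice 1 and 2. Id3, the E protein inhibitor, was at 4.79 to 10.4 CPM in KO and 4.10 to 13.5 in WT mice, from 20 to 67 UMIs a mouse, with -0.22 ± 0.27 (adjusted p = 0.657).

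**Figure D1:**
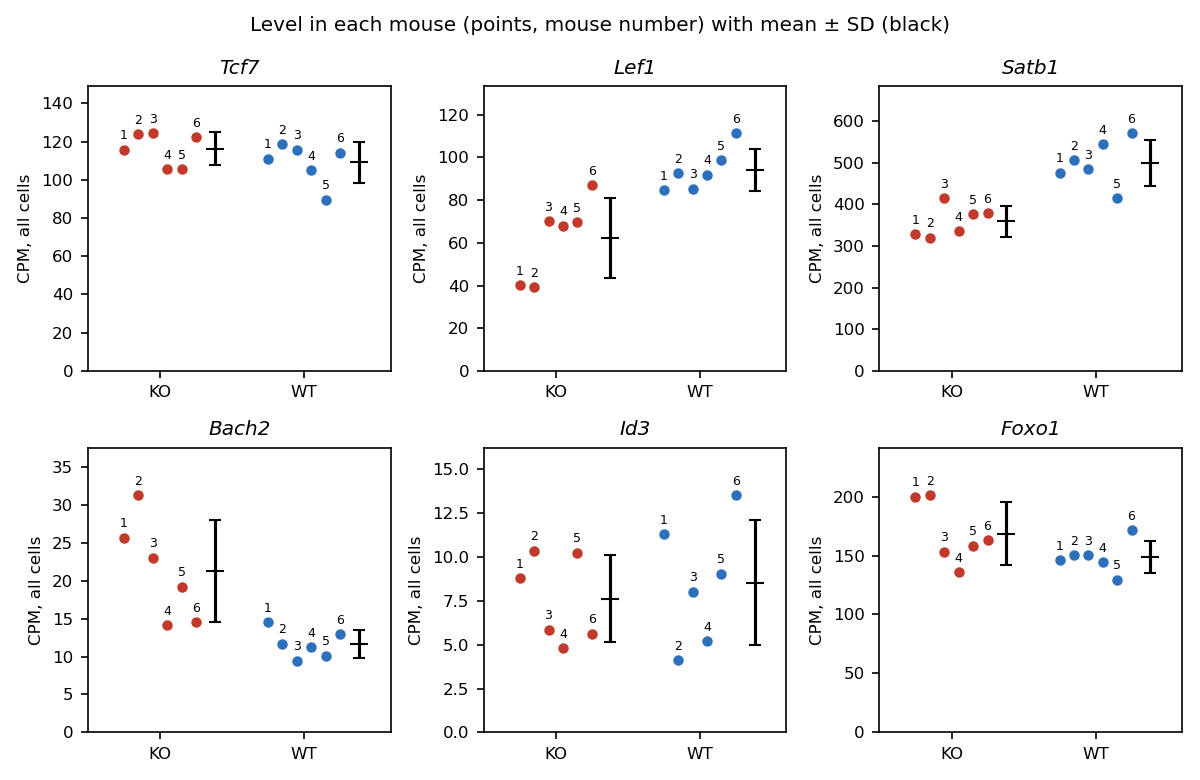
CPM of each gene over all cells (vertical axis, from 0) in KO and WT mice, 1 point per mouse with its number, and mean ± SD in black. Satb1 and Lef1 sit lower and Bach2 higher in KO mice, with KO mice 1 and 2 lowest for Lef1 (40.2 and 39.3 CPM) and highest for Bach2 and Foxo1.

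The authors' clusters differ in size between genotypes, so the over-all levels were set beside those that the mix of clusters alone would give. For this, each cluster was given its mean level in WT mice and weighted by the UMIs it held in each KO mouse. For Satb1 the mix alone gave a log2 ratio of 0.15 and the measured ratio of mean CPM was -0.48, so the 2 have opposite signs. For Lef1 the mix alone gave -0.12 against -0.59 measured, and for Bach2 0.28 against 0.87. For Tcf7 the 2 values were 0.08 and 0.09, for Foxo1 0.01 and 0.18, and for Id3 -0.33 and -0.17. With every mouse set to the mix of clusters of all cells pooled, Satb1 stood at -0.63 and Lef1 at -0.51 (edgeR adjusted p = 2.0e-07 and 0.00561). These sums are rescaled and rounded counts rather than UMIs as read, which the p-values do not take into account.

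**Figure D2:**
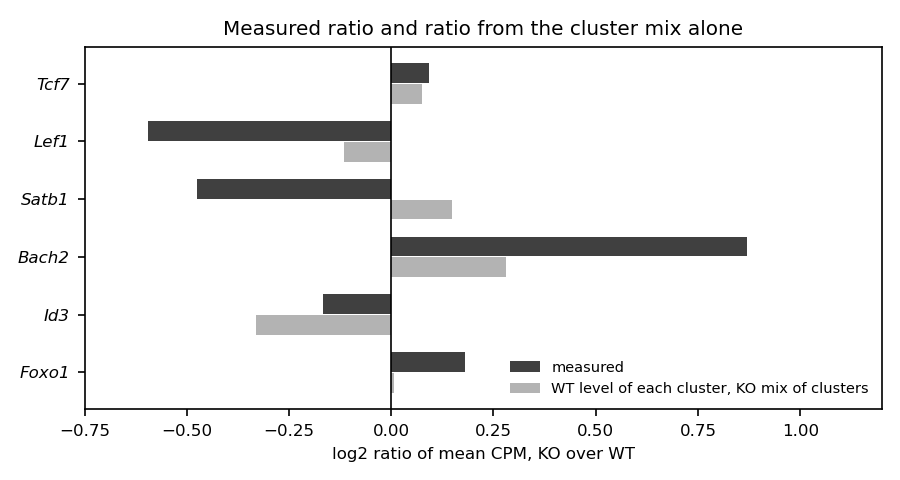
Log2 ratio of mean CPM, KO over WT (horizontal axis), as measured (dark bars) and as given by WT levels of each cluster with the KO mix of clusters (light bars). The bars of Satb1 point in opposite directions (-0.48 and 0.15), and those of Tcf7 are alike (0.09 and 0.08).

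Across clusters the 6 genes had different orders of level, given here as description because the clusters were made from the same counts. The authors' labels name recirculating, cytotoxic, Th17, cycling and regulatory cells, and 2 numbered clusters with a general CD4 label are called unnamed 1 and unnamed 3. Mice with at least 20 cells of a cluster entered, which is all 12 except in regulatory cells (5 KO and 3 WT mice). Median depth ranged from 2165 UMIs a cell in unnamed 3 to 4803 in cycling cells of KO mice, and from 2339 to 5581 in WT mice.

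Tcf7 was highest in unnamed 3 (160.4 ± 31.4 CPM in KO, 170.1 ± 33.8 in WT mice) and recirculating cells (146.0 ± 10.3 and 154.6 ± 18.6), whose ranges overlapped, and recirculating cells did not overlap the next cluster. It was lower in unnamed 1 (105.1 ± 9.58 and 94.3 ± 22.3), cytotoxic (102.6 ± 15.4 and 100.4 ± 16.3), Th17 (81.3 ± 21.5 and 84.95 ± 6.80) and cycling cells (80.1 ± 22.5 and 51.5 ± 17.5). Regulatory cells were at the bottom, with 7 Tcf7 UMIs over the 8 mice (6.76 ± 7.41 CPM, n = 5 KO, and 10.1 ± 9.67, n = 3 WT mice), and did not overlap the next cluster.

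Lef1 was highest in recirculating cells, at 103.9 ± 13.6 CPM in KO and 131.9 ± 26.3 in WT mice. In WT mice the 6 recirculating values, from 112.9 CPM up, lay above those of cytotoxic cells, the next in order (89.5 ± 11.01), and in KO mice they overlapped the next, Th17 cells (61.7 ± 29.9). The lowest cluster was unnamed 1 in KO (41.1 ± 13.2) and cycling cells in WT mice (60.3 ± 13.8), and neighbours below the top overlapped in both genotypes.

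Satb1 was highest in Th17 cells (563 ± 129 CPM in KO, 751 ± 67.2 in WT mice) and lowest in cytotoxic cells (121 ± 31.7 and 174 ± 17.6), which overlapped no neighbour in either genotype. Recirculating, unnamed 1 and unnamed 3 cells lay between, at 384 to 398 CPM on average in KO and 569 to 651 in WT mice, and overlapped each other. Regulatory and cycling cells followed at 286 ± 76.5 and 236 ± 49.1 CPM in KO mice.

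Foxo1 was also highest in Th17 cells (213 ± 52.7 and 202 ± 18.4 CPM) and lowest in cytotoxic (118 ± 16.3 and 120.2 ± 11.6) and cycling cells (120.2 ± 27.1 and 115.0 ± 24.1), and every neighbour in the order overlapped. Bach2 was highest in unnamed 3 (33.2 ± 11.2 and 20.4 ± 6.19 CPM), then unnamed 1 (24.7 ± 7.51 and 16.7 ± 6.50) and recirculating cells (19.0 ± 5.31 and 14.7 ± 4.69). Id3 was highest in cytotoxic cells of KO mice (17.9 ± 10.7) and in cycling cells of WT mice (25.2 ± 32.3), where WT mouse 1 alone held 33 of 64 UMIs, and lowest in Th17 cells (3.17 ± 2.93 and 2.30 ± 0.922). Id3 neighbours overlapped throughout.

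**Figure D3:**
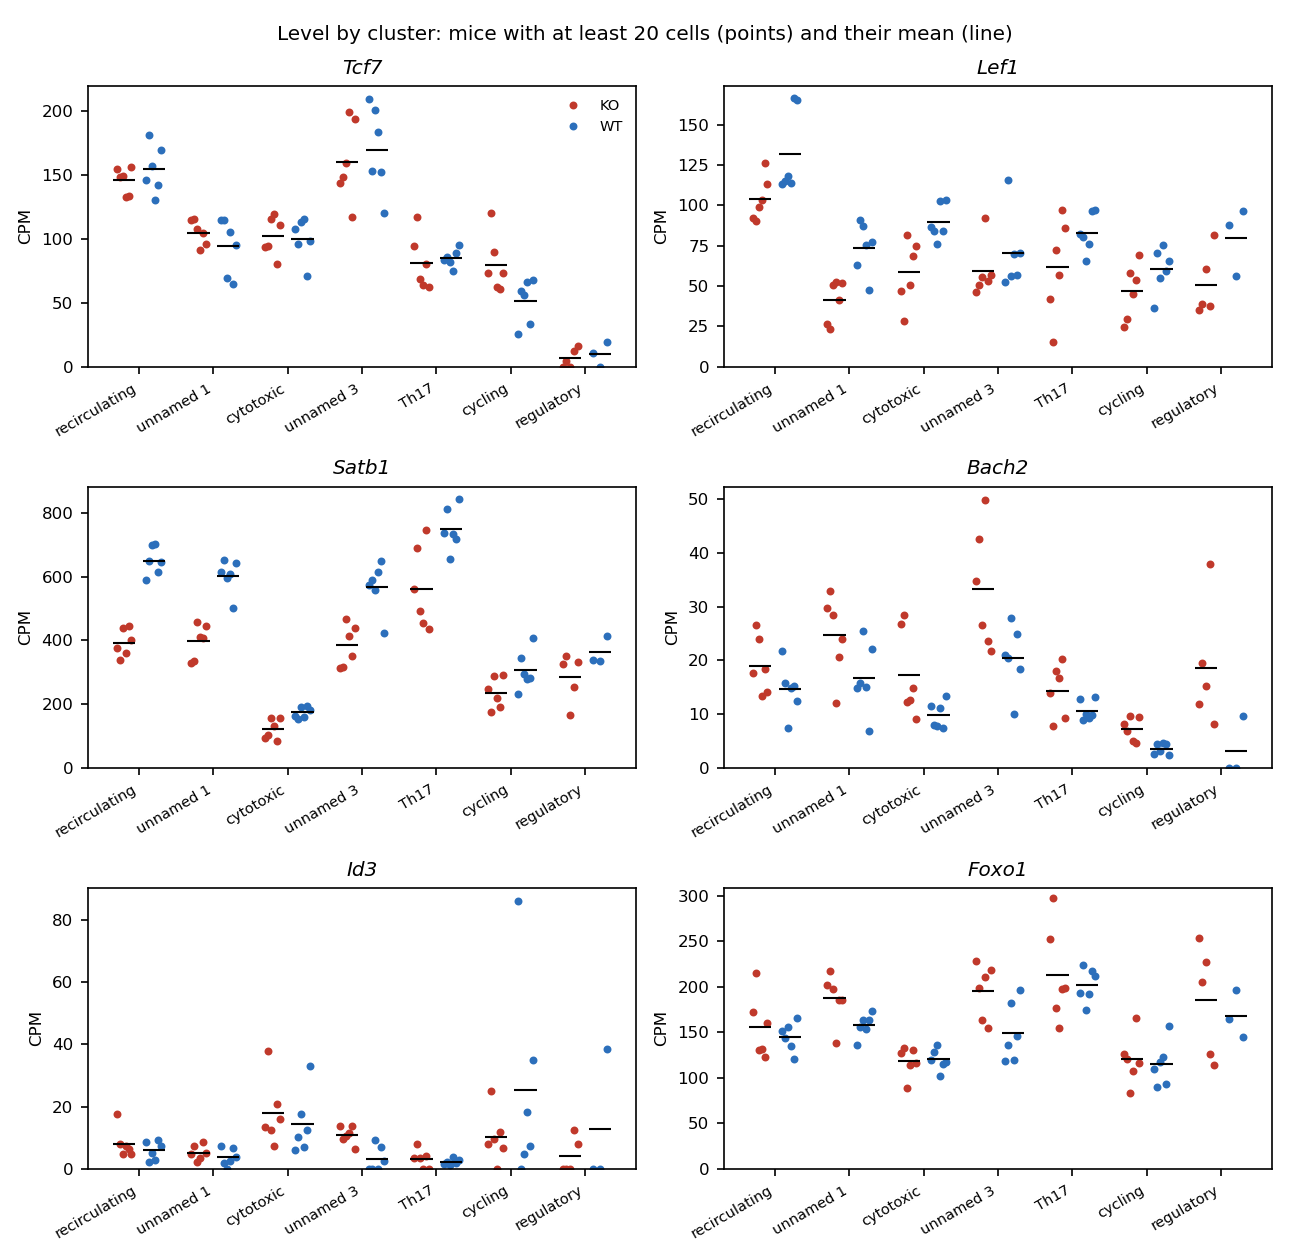
CPM of each gene (vertical axis, from 0) in each cluster, 1 point per mouse with at least 20 cells, KO red and WT blue, with the mean as a line. Satb1 separates KO from WT in recirculating and unnamed 1 cells, and Tcf7 is near 0 in regulatory cells.

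Within clusters, Satb1 was lower in KO mice in 5 of 7 clusters by the test and had a log2 fold change below 0 in all 7, although with cells thinned to 1500 UMIs the value of regulatory cells turned to 0.060. In recirculating cells it was at 376, 338, 440, 362, 445 and 402 CPM in KO mice 1 to 6, whereas WT mice 1 to 6 stood at 589, 648, 699.9, 705, 616 and 646 CPM. Every KO mouse lay below every WT mouse. The log2 fold change was -0.77 ± 0.07 (edgeR adjusted p = 1.5e-08), and Satb1 was the 1 gene called of the 5 that passed the filter there, where 5.48% of genes tested were called (3.3% lower).

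In unnamed 1 cells Satb1 was at 329, 336, 459, 410.2, 408 and 446 CPM in KO mice 1 to 6, whereas WT mice 1 to 6 stood at 615, 653, 598, 609, 501.8 and 644.5 CPM, again with no overlap. The log2 fold change was -0.67 ± 0.09 (edgeR adjusted p = 6.5e-05), and Satb1 and Lef1 were called lower of 5 genes tested (4.65% of all genes tested were called, 2.9% lower). In unnamed 3 cells the Satb1 value was -0.65 ± 0.11 (adjusted p = 1.9e-04) and 1 of 4 genes was called (8.42% of all, 5.33% lower).

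Satb1 stood at 563 ± 129 CPM in KO and 751 ± 67.2 in WT Th17 cells, with ranges that overlapped, and 1 of 4 genes was called there (5.09% of all, 2.57% lower). The log2 fold change was -0.49 ± 0.11 (edgeR adjusted p = 0.00797), and with cells thinned to 1500 UMIs it was -0.39 (adjusted p = 0.0547). In cytotoxic cells it was -0.51 ± 0.13 (adjusted p = 0.0314), 1 of 5 genes called against 2.89% of all (1.58% lower). That call was lost without any 1 of KO mice 1, 2, 4 and 5 or WT mice 3, 5 and 6 (adjusted p = 0.0559 to 0.129), and without both KO mice 1 and 2 (-0.44, adjusted p = 0.130).

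The remaining clusters did not pass for Satb1. Cycling cells gave -0.43 ± 0.13 (edgeR adjusted p = 0.0652; 0 of 4 genes called, against 5.36% of all), which passed with no filter on low counts (adjusted p = 0.0443) and without KO mouse 3, KO mouse 6 or WT mouse 1 (lowest adjusted p = 0.0192). Regulatory cells gave -0.31 ± 0.22 (adjusted p = 0.642; 0 of 2 called, against 0.513%), and 0.060 with thinned cells.

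Lef1 was tested in 6 clusters, had a log2 fold change below 0 in each, and was called in unnamed 1. There it was at 26.6, 23.2, 50.8, 52.6, 41.45 and 52.0 CPM in KO mice 1 to 6, whereas WT mice 1 to 6 stood at 63.2, 91.0, 87.5, 75.5, 47.8 and 77.3 CPM. Only WT mouse 5 reached into the KO range, and the log2 fold change was -0.96 ± 0.21 (edgeR adjusted p = 0.00531). In recirculating cells Lef1 was at 90.4 to 126.1 CPM in KO and 112.9 to 166.3 in WT mice, with -0.36 ± 0.11 (adjusted p = 0.0506).

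The Lef1 value of recirculating cells lies at the threshold: it passed with cells thinned to 1500 UMIs (-0.52, edgeR adjusted p = 0.00957), with no filter on low counts (adjusted p = 0.0404), and without KO mouse 5 or any 1 of WT mice 1 to 4. In cytotoxic cells Lef1 stood at -0.53 ± 0.15 (edgeR adjusted p = 0.0601), and it passed with no filter (0.0241), without KO mouse 3 (0.0361) and without WT mouse 3 (0.0413). In unnamed 3 it was at -0.45 ± 0.19 (edgeR adjusted p = 0.158), and at -0.25 without WT mouse 2. In cycling cells it was at -0.40 ± 0.21 (0.379) and in Th17 cells at -0.33 ± 0.19 (0.454).

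Tcf7, tested in 6 clusters, was called in 0, with log2 fold changes of -0.19 to 0.57. Its highest value was in cycling cells, at 73.2, 120.6, 90.0, 62.2, 60.9 and 73.4 CPM in KO mice 1 to 6, whereas WT mice 1 to 6 stood at 26.1, 59.5, 56.5, 66.1, 33.5 and 67.7 CPM. All but 2 WT mice lay below the lowest KO mouse, and the difference was 0.57 ± 0.21 (edgeR adjusted p = 0.134). Foxo1, tested in all 7 clusters, was called in 0, with values of -0.13 to 0.29 and the highest in unnamed 3 (0.29 ± 0.14, adjusted p = 0.236).

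Bach2 passed the filter in recirculating (0.24 ± 0.23, edgeR adjusted p = 0.696) and unnamed 1 cells (0.56 ± 0.29, adjusted p = 0.365) and was called in neither. The recirculating value ran from 0.086 without WT mouse 3 to 0.40 without WT mouse 1, and it was 0.11 without KO mouse 3. Its mean CPM was higher in KO than in WT mice in all 7 clusters. Only in cycling cells did the genotypes not overlap, at 4.68 to 9.64 CPM against 2.34 to 4.56, and these rest on 22 and 11 UMIs. With no filter, Bach2 was at 0.64 ± 0.28 in unnamed 3 (adjusted p = 0.261) and 0.92 ± 0.48 in cycling cells (adjusted p = 0.467).

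Id3 passed the filter in cytotoxic cells alone (0.04 ± 0.44, edgeR adjusted p = 0.995). In unnamed 3 it was at 13.9, 9.56, 10.6, 11.5, 13.8 and 6.54 CPM in KO mice 1 to 6 (57 UMIs), whereas WT mice 1 to 6 stood at 0, 0, 9.33, 0, 7.10 and 2.62 CPM (5 UMIs). KO mouse 6 was the only KO mouse below a WT mouse. With no filter the log2 fold change was 1.81 ± 0.58 (edgeR adjusted p = 0.0628). This value rests on 5 UMIs on the WT side, where 3 WT mice had no UMI.

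**Figure D4:**
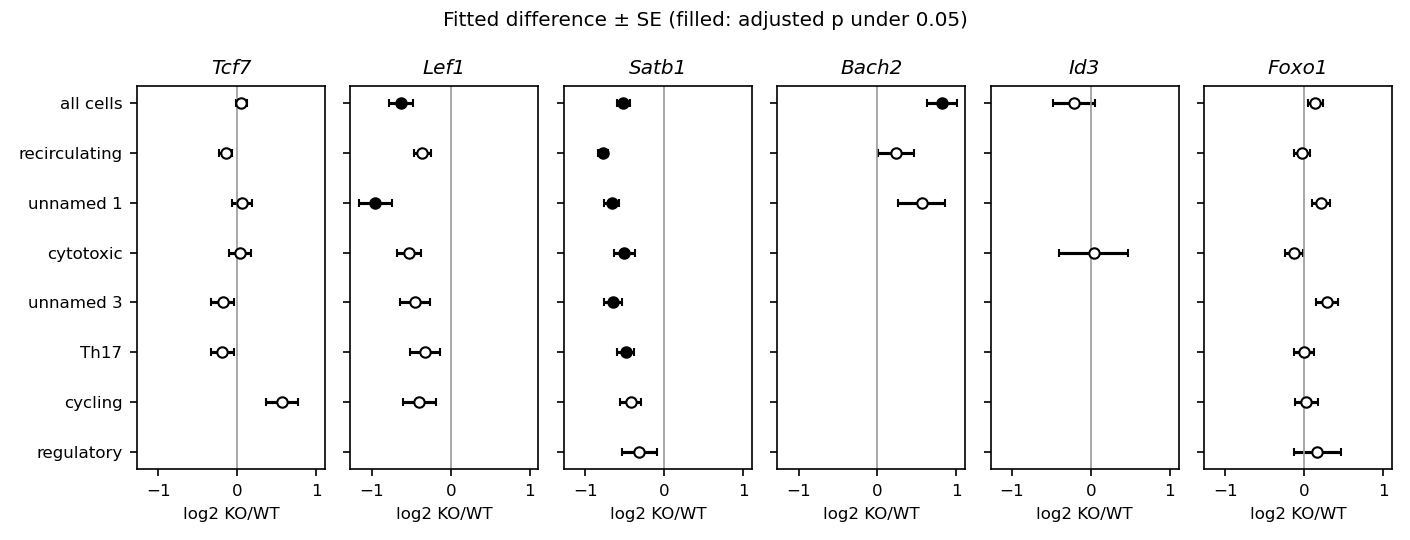
Fitted log2 fold change, KO over WT (horizontal axis), ± SE for each gene over all cells and in each cluster in which it passed the filter; filled points have an adjusted p under 0.05. Satb1 lies left of 0 in all 7 clusters, from -0.77 to -0.31 (regulatory cells turn to 0.060 when thinned), and Tcf7 and Foxo1 have no filled point.

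Whether the genotype difference itself varied between clusters was tested with limma on the difference between each cluster and recirculating cells within a mouse. None of the 6 genes was called in any of the 6 pairs, in which 0.0753% (unnamed 1), 0.111% (cytotoxic), 0.192% (unnamed 3), 0.0899% (Th17), 0.757% (cycling) and 0% (regulatory) of all genes tested were called. Before adjustment, p was under 0.05 for 6 gene and cluster pairs. Tcf7 in cycling cells came nearest, at 0.76 ± 0.20 (limma adjusted p = 0.0719), and it passed without WT mouse 4 (adjusted p = 0.0330). The other 5 were Satb1 in cycling (0.38 ± 0.12, adjusted p = 0.195) and Th17 cells (0.30 ± 0.13, 0.5003), Lef1 in unnamed 1 (-0.51 ± 0.21, 0.540), and Id3 (1.29 ± 0.54, 0.510) and Foxo1 (0.31 ± 0.14, 0.575) in unnamed 3. For Satb1 the difference from recirculating cells was above 0 in all 6 clusters, from 0.13 in unnamed 1 to 0.41 in regulatory cells. So the call of Satb1 or Lef1 in some clusters and not in others is not shown to be a difference between clusters.

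The share of cells with a UMI was compared with cells thinned to 1500 UMIs each. This dropped 491 KO and 407 WT cells with fewer UMIs. A Satb1 UMI was found in 35.1% ± 3.30 of cells of KO and 43.9% ± 3.59 of WT mice (SD, n = 6 each), against 50.1% ± 5.81 and 59.6% ± 3.38 without thinning. The genotypes overlapped for Satb1 with and without thinning (thinned, highest KO mouse 40.3% and lowest WT mouse 37.7%). For Lef1 the thinned shares were 8.19% ± 2.25 and 13.0% ± 1.04 (14.96% ± 5.33 and 23.5% ± 1.58 unthinned), and the genotypes overlapped only unthinned. For Bach2 they were 3.34% ± 0.885 and 1.90% ± 0.208 (5.68% ± 1.39 and 3.62% ± 0.457 unthinned), and the genotypes overlapped unthinned and with cells thinned to 500 UMIs.

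Tcf7 UMIs were in 16.4% ± 1.26 and 15.5% ± 0.999 of thinned cells (25.9% ± 2.36 and 26.8% ± 1.81 unthinned), and the ranges overlapped. In regulatory cells, the cluster with the lowest Tcf7, its share was 1.96% ± 1.602 (n = 4 KO mice) and 0.980% ± 1.70 (n = 3 WT mice) thinned, 1.87% ± 2.17 and 2.12% ± 1.95 unthinned, at median depths of 2624 and 2982 UMIs a cell. Id3 shares were 1.01% ± 0.202 and 0.930% ± 0.228 over all thinned cells. In thinned cells the Id3 shares and the WT share of Bach2 were no higher than the Tcf7 share in regulatory cells of KO mice. That cluster held only 5 thinned cells with a Tcf7 UMI. Unthinned, the Bach2 shares lay above the Tcf7 shares of regulatory cells. No cluster gives a background for Id3 or Bach2, so no difference is read from the shares of either gene. Foxo1 shares were 21.4% ± 2.73 and 18.6% ± 1.67 thinned, and 33.3% ± 2.50 and 33.75% ± 2.24 unthinned.

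Within single cells, joint detection in thinned cells was computed for pairs of the 6 genes. Satb1 with Tcf7 is given here, the only pair higher in 12 of 12 mice over all clusters. Over all clusters a Satb1 UMI was present in 44.3% ± 7.08 of cells with a Tcf7 UMI and in 38.6% ± 5.55 of those without (SD, n = 12 mice), higher in 12 of 12 mice. Within recirculating cells the shares were 53.0% ± 10.8 and 48.5% ± 11.4, higher in 7 of 11 mice, and within unnamed 1 cells 43.0% ± 9.51 and 40.2% ± 8.10, higher in 5 of 8 mice. The pooled shares mix clusters that differ in the level of both genes. Over all clusters the other pairs were higher in 4 to 10 of 12 mice, except Id3 with Satb1, which went the other way. An Id3 UMI was in 0.654% ± 0.246 of cells with a Satb1 UMI and 1.18% ± 0.283 of those without, higher in 0 of 12 mice, from few Id3 counts.

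The genes whose level followed each of the 6 most closely were found among 2881 genes with a mean of at least 50 CPM, by Pearson's r of log2 CPM over 80 sums of a mouse and a cluster. These sums share 1 library and differ in depth and cell number, so r is a description. For Tcf7 they were Rpl8 (r = 0.91), Pde3b (0.89) and Rpl35a (0.89), and for Satb1 Ramp3 (0.83), Hif1a (0.79) and Ppp1cc (0.79). For Bach2 they were Vps37b (0.80), Rbm39 (0.74) and Atg2a (0.72), for Foxo1 Got1 (0.74), Ifngr1 (0.72) and Arpc3 (0.70), for Lef1 Limd2 (0.69), Gmfg (0.67) and Naca (0.65), and for Id3 Mrps26 (0.51), Ctsc (0.49) and Elf2 (0.48). Between the 6 genes themselves r ran from -0.45 to 0.45.

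Cells of clones that had grown to 5 or more cells in a mouse (7811 cells) held less Tcf7 than cells that were alone in their clonotype (4067 cells). Tcf7 was at 102.2 to 185.0 CPM in single cells and at 58.7 to 119.0 in expanded cells of the same 12 mice (means 138 ± 22.0 and 93.9 ± 15.5), lower in 12 of 12. The edgeR fit with the mouse as a block gave -0.59 ± 0.08 (adjusted p = 3.2e-05), and Satb1 (-0.42 ± 0.06, adjusted p = 4.3e-05) and Bach2 (-0.77 ± 0.16, adjusted p = 0.00158) were each lower in 11 of 12 mice. With Foxo1 (-0.19 ± 0.06, adjusted p = 0.0440), 4 of the 5 genes tested were called, all lower, where 10.8% of 7693 genes were called (5.52% lower). The Foxo1 call was lost with clonotypes of at least 2 or at least 10 cells (edgeR adjusted p = 0.140 and 0.0545) and without any 1 of KO mice 3 to 6 or WT mice 1 to 5. Lef1 gave -0.23 ± 0.08 (edgeR adjusted p = 0.0526), and it passed with clonotypes of at least 10 cells (0.0347) and without KO mouse 2, 3 or 5 or WT mouse 6 (0.0202 to 0.0454).

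The median depth was 2837 ± 208 UMIs in single and 2849 ± 318 in expanded cells (SD, n = 12 mice). Recirculating cells took 28.7% ± 11.6 of single and 19.7% ± 8.45 of expanded cells, and cytotoxic cells 15.1% ± 8.86 and 24.0% ± 17.6. Within recirculating cells (1085 single, 1582 expanded) Tcf7 was at -0.54 ± 0.10 (edgeR adjusted p = 6.6e-04, lower in 9 of 12 mice) and Satb1 at -0.31 ± 0.07 (adjusted p = 0.00391, lower in 8 of 12), 2 of 4 genes called lower against 4.05% of all (2.41% lower). Lef1 stood at 0.01 ± 0.11 there (adjusted p = 0.979).

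**Figure D5:**
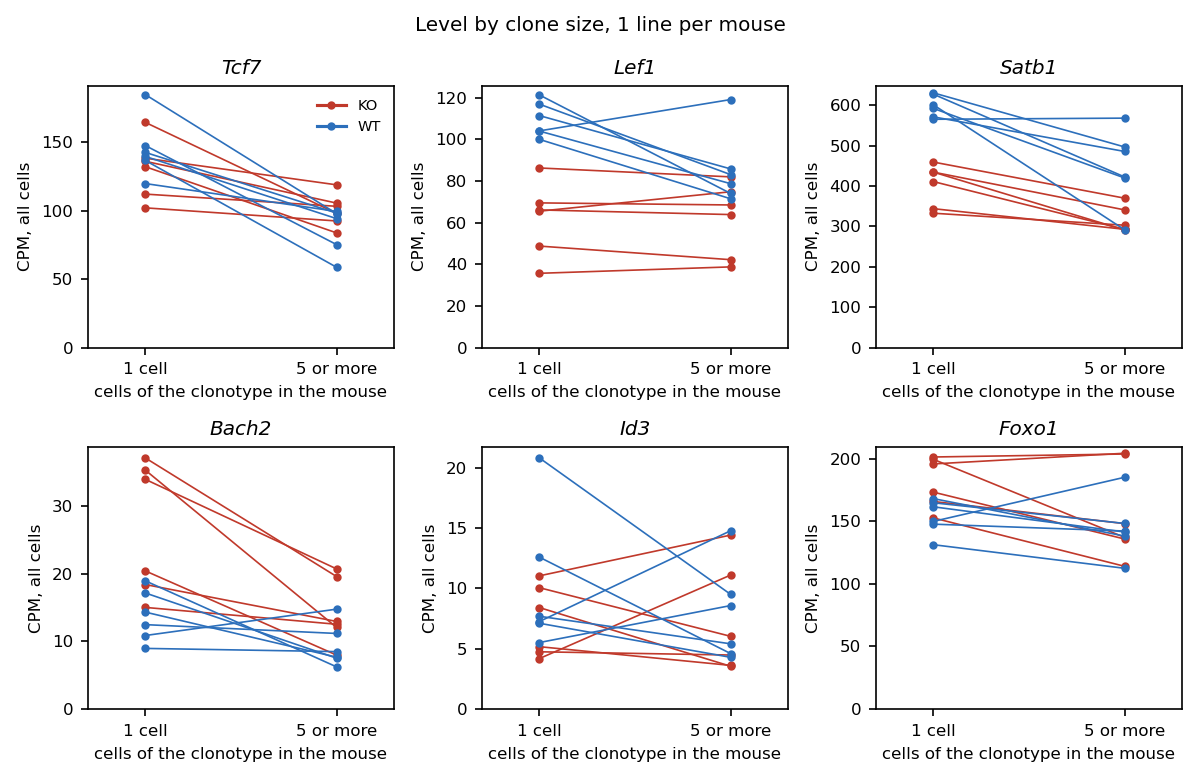
CPM of each gene (vertical axis, from 0) in cells of clonotypes with 1 cell and with 5 or more cells in the mouse, 1 line per mouse, KO red and WT blue. The Tcf7 line falls in 12 of 12 mice and the Satb1 line in 11 of 12.

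Among partners of TCF-1 and LEF-1, 3 of 11 tested genes rose over all cells in KO mice and 0 fell, beside a background of 14.2% called. They were the corepressor Tle4 (0.39 ± 0.09, edgeR adjusted p = 0.00561), Ctnnb1, which encodes beta-catenin (0.27 ± 0.07, adjusted p = 0.0166), and Gsk3b, the kinase that marks beta-catenin for decay (0.21 ± 0.06, adjusted p = 0.0212). In recirculating cells 0 of 10 were called, against 5.48% of all genes tested.

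Of 10 tested relatives and targets of FOXO1, 4 rose and 2 fell over all cells (background 7.04% higher, 7.21% lower). Klf3 (0.57 ± 0.14, edgeR adjusted p = 0.0101), Txnip (0.46 ± 0.13), Foxp1 (0.32 ± 0.09) and Foxo3 (0.29 ± 0.09) rose. The target Klf2, a factor for exit from tissue, fell by 0.58 ± 0.10 (adjusted p = 0.00139), with 269.8 ± 45.6 CPM in KO and 393 ± 50.6 in WT mice. Pik3ip1, an inhibitor of PI3-kinase, fell by 0.88 ± 0.16 (adjusted p = 0.00134). Il7r, the interleukin 7 receptor, was at 0.11 ± 0.07 (adjusted p = 0.280). In recirculating cells 0 of 9 and in cytotoxic cells 0 of 8 were called, against 5.48% and 2.89% of all genes tested. Called were 3 of 8 in unnamed 1 (Klf3 and Txnip higher, Pik3ip1 lower) and 2 of 7 in unnamed 3 (Klf3 and Txnip higher). All genes tested there were called at 4.65% and 8.42%. Th17 cells had 2 of 8 (Txnip higher, S1pr1 lower, 5.09% of all) and cycling cells 2 of 8 (Txnip higher, Klf2 lower, 5.36%). In regulatory cells 2 of 4 were called (Il7r and Txnip lower, 0.513% of all). These are among 9 genes called there, and 0 were called without KO mouse 1 or without KO mice 1 and 2. In recirculating cells Klf2 was at -0.27 ± 0.08 (adjusted p = 0.0639).

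Of 4 tested E and Id proteins, Id2, the counterpart of Id3, rose (0.20 ± 0.06, edgeR adjusted p = 0.0453) and 0 fell (background 7.04% higher, 7.21% lower). Of 12 partners and rivals of BACH2, 4 rose and 1 fell over all cells, against the same background. Those that rose were Nfe2l2 (0.44 ± 0.09, adjusted p = 0.00492), Junb (0.34 ± 0.10, adjusted p = 0.0334), Maff and Fosl2. Batf, an AP-1 factor of effector T cells, fell by 0.78 ± 0.12 (adjusted p = 4.9e-04), with 240.4 ± 48.6 CPM in KO and 402 ± 58.8 in WT mice and no overlap, and was called lower in 5 of 7 clusters. Prdm1 was at 90.7 ± 5.64 and 87.5 ± 9.53 CPM (0.01 ± 0.07, adjusted p = 0.937).

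Of 13 tested other genes of stem-like, naive or memory T cells, 2 rose and 4 fell over all cells (background 7.04% higher, 7.21% lower). Bcl6 (0.48 ± 0.10, edgeR adjusted p = 0.00398) and Gata3 (0.47 ± 0.12, adjusted p = 0.0124) rose. Bcl6 is the gene made deficient in KO cells. Which part was removed is not given, so its count is not read as a rise of working Bcl6. The chemokine receptor Ccr4 fell by 0.56 ± 0.14 (adjusted p = 0.0149), Tox by 1.01 ± 0.29 (adjusted p = 0.0297), Slamf6, a surface marker of stem-like T cells, by 0.54 ± 0.17 (adjusted p = 0.0389) and Ikzf1 by 0.18 ± 0.06 (adjusted p = 0.0416). Slamf6 also fell in recirculating cells, by 0.61 ± 0.15 with no overlap (adjusted p = 0.0144). Gata3 did not keep 1 direction across clusters: it was called higher in cytotoxic and lower in unnamed 3 cells. In recirculating cells Gata3 stood at 0.03 ± 0.13 (edgeR adjusted p = 0.965).

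Effector transcription factors moved both ways: of 12 tested, 3 rose and 6 fell over all cells (background 7.04% higher, 7.21% lower). Eomes, a factor of cytotoxic cells, fell by 3.21 ± 0.33 (edgeR adjusted p = 1.3e-05), beside a share of cytotoxic cells of 8.63% ± 4.52 in KO and 33.2% ± 6.77 in WT mice, whose part in the fall was not tested. Zeb2 fell by 0.95 ± 0.15 (edgeR adjusted p = 5.6e-04) and Hif1a by 0.29 ± 0.09 (adjusted p = 0.0377). Ahr rose by 0.79 ± 0.09 (adjusted p = 3.8e-05). Within cytotoxic cells 4 of 11 tested genes of this list were called lower, Eomes, Zeb2 and Hif1a among them, and 1 higher (Ahr). All genes tested in cytotoxic cells were called at 2.89% (1.58% lower). Hif1a, among the 3 genes most like Satb1 in level, also fell in recirculating (-0.51 ± 0.08, adjusted p = 1.8e-04) and unnamed 1 cells (-0.47 ± 0.10, adjusted p = 0.00484). Likeness to Satb1 was measured over sums that include these same cells, so these falls are not separate from it.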

How the data were processed

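Colonic CD4 T cells of 6 KO and 6 WT recipients were read as 1 gene expression library with a hashtag library. The submitters' processing notes name Cell Ranger 3.1.0, Seurat 3.1.5, GRCm38 and mm10. The authors deposited raw UMI counts per gene and cell, and an annotation with mouse, genotype, cluster and clonotype. That deposited annotation holds, per cell, mitochondrial UMIs as a percent. It also holds the authors' doublet score, at most 0.354. The aligner settings, cell filter and annotation version are not given in the sources used here, and no doublet caller was run here. The deposited genotype matched the hashtag table in 18860 of 18860 cells. The genes, lists and tests were chosen with earlier results of these data known.

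Counts were summed per mouse, or per mouse and cluster with at least 20 cells, and compared in R 4.3.3 by edgeR 4.0.16 (TMM, filterByExpr, no covariates, two-sided). SE is the log2 fold change over the square root of F. CPM is per 1000000 UMIs of the sum. Differences between clusters used limma 3.58.1 on log2 CPM with a prior count of 2. Clone sizes used edgeR with the mouse as a block. Functions were tested on simulated data, with a minimum set for the share of changed genes recovered. The limma test of cluster differences was held to that minimum only at the larger of its simulated fold changes. Alternatives were DESeq2 1.42.0 and its size factors, no filter, thinning, the same mix of clusters in every mouse, and no cycling cells. Others were at least 50 cells, a prior count of 0.5, other clone sizes and mice left out. Named genes were the 6, up to 3 genes per list with the smallest p over all cells, the partners Id2, Prdm1, Klf2, Il7r and Bcl6, and 3 alike genes each. Another partner is not reported here. Txnip, S1pr1, Foxp1, Foxo3, Maff, Fosl2, Tox, Slamf6 and Ikzf1 beyond that rule were named after their values were seen.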

Additional observations from a re-analysis of the deposited data

Results flagged for a closer look

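In 4 of 90 groups of mice, 1 mouse stood apart from the others of its genotype by Dixon's test at the 95% level, which chance gives in about 1 in 20 groups. Id3 in recirculating cells was at 17.6 CPM in KO mouse 1, from 9 UMIs, against 4.64 to 7.98 in the other KO mice. Satb1 in unnamed 1 cells was at 501.8 CPM in WT mouse 5 against 597.8 to 652.6 in the other WT mice. Lef1 in unnamed 3 cells was at 91.95 CPM in KO mouse 4 (24 UMIs) against 46.1 to 56.7 in the other KO mice, and at 115.8 CPM in WT mouse 2 (34 UMIs) against 52.3 to 70.7 in the other WT mice.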

How the results depend on the processing

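Over all cells, Satb1, Lef1 and Bach2 kept their direction and their call under the 7 alternative settings and with each mouse left out in turn. Some values that were not called changed sign. Over all cells Foxo1 was -0.0012 without KO mice 1 and 2. With the same mix of clusters in every mouse, Id3 was 0.055 and Tcf7 -0.030 over all cells. With thinned cells Foxo1 was 0.11 in recirculating, 0.060 in cytotoxic and -0.16 in regulatory cells, and Satb1 was 0.060 in regulatory cells (from -0.31). Without KO mice 1 and 2, Tcf7 was -0.018 in unnamed 1, Id3 -0.10 in cytotoxic and Foxo1 -0.19 in regulatory cells. With no filter, in cytotoxic cells, Id3 was -0.014 and Tcf7 -0.019. With clones of at least 10 cells, Lef1 was -0.051 in recirculating cells.

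With single mice left out, Tcf7 ran from -0.00017 to 0.082 over all cells, -0.015 to 0.14 in unnamed 1 and -0.048 to 0.12 in cytotoxic cells. Foxo1 ran from -0.088 to 0.035 in recirculating, -0.080 to 0.064 in Th17 and -0.070 to 0.13 in cycling cells. Id3 ran from -0.10 to 0.28 in cytotoxic cells, and Lef1 from -0.028 to 0.078 with clone size in recirculating cells.

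Counts of genes called were 770 over all cells, 175 in unnamed 1, 203 in unnamed 3, 176 in cycling and 0 in regulatory cells without KO mice 1 and 2 (from 1405, 276, 357, 288 and 9 with all mice). Of the 0 in regulatory cells, edgeR gave 108 of 1391 genes an unadjusted p under 0.05. With thinned cells they were 273 in recirculating, 177 in Th17, 144 in cycling and 3 in regulatory cells (from 416, 283, 288 and 9), where fewer genes were tested. With no filter they were 307 in cytotoxic (from 191) and 44 in regulatory cells. For differences from recirculating cells, a prior count of 0.5 gave 2 in cytotoxic and 5 in unnamed 3 cells (from 9 and 15), and at least 50 cells gave 15 in Th17 cells (from 7). With single mice left out these counts ran from 0 to 12 in regulatory cells and, for differences from recirculating cells, from 5 to 12 (unnamed 1), 1 to 9 (cytotoxic), 7 to 19 (unnamed 3), 5 to 24 (Th17), 22 to 50 (cycling) and 0 to 1 (regulatory; limma gave 298 of 4945 genes an unadjusted p under 0.05 with all mice). The cause of other changes was not tested.

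No paired analysis was possible because mice 1 to 6 of each genotype carried different hashtags and share no number in the labels. The setting of at least 50 cells a mouse was not run where it changed no mice or left under 2 of a genotype. Within clusters, Id3 and Bach2 rest on few UMIs and mostly did not pass the filter on low counts.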
